A study of Homo sapiens with 11 samples.

Results

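The surface antigens of myeloma cells that antibodies, engineered T cells or drug conjugates are aimed at were followed through PHF19 knockdown and PHF19 overexpression in ARP1, an established human multiple myeloma line of IgA kappa type. The members were chosen by name as a list of 10 genes, SDC1, TNFRSF17, CD38, SLAMF7, FCRL5, GPRC5D, CD47, ICAM1, CD33 and CCR10. Earlier results of these data were known at that choice. All 10 are among the 14458 rows of the knockdown table and the 11062 rows of the overexpression table. After the filter on low values 9 were tested in the former and 10 in the latter. FCRL5 was too low in the knockdown table.

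Plasma cells, and the myeloma cells derived from them, lose many surface proteins of the B cell and gain syndecan-1, BCMA, CD38 and SLAMF7. These antigens report cell identity, and the amount on the surface is one of the things that limits antibody or T cell therapy. PHF19 is a Polycomb-like protein that joins Polycomb repressive complex 2, which methylates histone H3 and keeps developmental and lineage genes silent. PHF19 and its relatives bind unmethylated CpG-rich DNA and a methyl mark found in transcribed genes.

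RNA-seq was done on 11 libraries in 4 groups, all from ARP1. Cells infected with a lentivirus carrying a PCDH plasmid were either empty vector (n = 3, replicates 3, 4 and 5) or PHF19 overexpression (n = 2, replicates 1 and 2). The others were a scramble control (n = 3) and PHF19 shRNA (n = 3), each numbered 1 to 3. Groups come from the sample titles, since the genotype tag of scramble and shRNA samples carries the overexpression wording. The virus was packaged in HEK293T cells, and the design text names sorting of the overexpressing cells. Whether empty vector cells were sorted, how many hairpins were used and whether replicates were separate cultures is not stated in the labels, so p-values measure the spread between these samples, which may be technical. A suffix in the sample descriptions, unexplained in the labels, is F on overexpression samples but S on empty vector samples. Sorting, what these letters mark and PHF19 overexpression cannot be told apart. The 2 tables were normalised separately, and shRNA was compared with scramble, and overexpression with empty vector, only within a table. The values are abundances per gene length and depth of the FPKM type. The headers name no unit, and read depth is unknown. In bulk RNA, fewer cells carrying an antigen and less RNA per cell cannot be told apart.

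The libraries differ in ways that touch the results. PHF19 was 113, 152 and 123 in scramble against 75.2, 103 and 108 in shRNA libraries (-0.44 on the log2 scale, SE 0.17, limma adjusted p = 0.147, and 0.0445 when the replicate number was a block). In the overexpression table it was 111, 119 and 115 in empty vector against 227 and 213 (0.93, SE 0.094, adjusted p = 0.0438, and 0.156 in a fit of only those genes that have no 0). The latter call held without empty vector replicate 5 (adjusted p = 0.0349) and was lost without any other single library (0.149 to 0.264). In the knockdown table shRNA replicate 1 correlated with the other libraries at 0.953 to 0.973 (Pearson, log2 values across 10900 genes). Replicates 2 and 3 of shRNA correlated at 0.993. In shRNA replicate 1 FGFR3 was 37.1, against 2.26 and 2.47 in shRNA replicates 2 and 3 and 1.65 to 1.85 in scramble. CD44 was 9.96 in that library, against 33.8 and 32.6 in shRNA replicates 2 and 3. In the overexpression table libraries correlated at only 0.760 to 0.831 (Pearson, log2 values across 10279 genes, those with a 0 included). Empty vector replicate 5 correlated at 0.760 and 0.770 with empty vector replicates 3 and 4, which correlated at 0.817. Its correlations with overexpression replicates 1 and 2 were higher, at 0.789 and 0.783. On the overexpression side, 1008 genes are listed at exactly 0 in a library beside a value of at least 10 in another library of the same group, against 4 genes in the knockdown table. Ribosomal protein genes, which every cell uses, are among the genes at 0: 16 of 64 have a 0, RPL3 and RPL4 are at 0 in all 5 libraries, and RPL11 is at 0 in both overexpression libraries beside 1733 to 2006 in empty vector. A 0 in that table is therefore given as a listing only.

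The lists of cell type markers were read as sums of abundance. The 9 plasma cell markers include 4 members of the antigen set. Their sums were 1818 to 2035 in scramble and 1446 to 1868 in shRNA libraries. They were 2538 to 3542 in empty vector and 4358 to 11528 in overexpression libraries. None of the 9 passed limma in either table. TNFRSF17, listed at 0 in empty vector replicates 3 and 4, is in these sums. SDC1 was 260 and 267 in overexpression libraries, and TNFRSF17, CD38 and SLAMF7 were at most 91.9 each. The 16 matched transcription factors listed as antigen regulators, XBP1, IRF4 and PRDM1 among them, summed to 1380 and 1392 there. Most of the plasma cell marker sum there thus comes from the remaining markers, MZB1 and JCHAIN. It was 4358 in 1 overexpression library and 11528 in the other. T cell markers summed to at most 0.96 in knockdown libraries, and no T cell marker was matched in the overexpression table. Myeloid markers summed to at most 2.71 in knockdown libraries and 6.17 in overexpression libraries. Stromal markers reached at most 0.82 and 3.40. Of 5 B cell markers, 3 were matched in the knockdown table and 2 in the overexpression table, and none passed limma. They summed to 14.6 to 15.95 in scramble and 3.48 to 16.8 in shRNA libraries. The sums were 1.92 to 28.9 in empty vector and 1.60 to 1.71 in overexpression libraries. The low shRNA sum is from replicate 1, where CD79A was 1.81, against 13.7 and 13.9 in shRNA replicates 2 and 3. Of the epithelial markers, KRT18, a keratin, fell from 11.1 ± 1.84 (SD, n = 3) to 5.08 ± 0.382 (n = 3) after knockdown (log2 fold change -0.99, limma adjusted p = 0.0137, lost without scramble replicate 2 at 0.0665). KRT8, the other of the 2 epithelial markers matched there, was 1.20 ± 0.608 and 1.30 ± 0.541 (0.077, adjusted p = 0.881).

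None of the 9 members tested passed limma in the knockdown comparison, where 5.51% of all 10900 genes did. At an unadjusted p under 0.05 there were 2 members, GPRC5D and CD33, against 24.1% of all genes. With the replicate number as a block 1 of 9 passed, GPRC5D, where 11.9% of all genes passed (1295 genes, against 601 without the block). Groups did not overlap for 3 of 9 members, where 32% of all genes were without overlap. These shares lie near those of all genes. The median log2 fold change was -0.21 over the 9 members and 0.034 over all genes. By log2 fold change 7 members were lower and 2 higher in shRNA libraries, where 54.4% of all genes were higher. Without shRNA replicate 1, SDC1, CD38, SLAMF7 and CCR10 turned higher (0.14, 0.054, 0.42 and 0.32), while TNFRSF17, GPRC5D and ICAM1 stayed lower. That fit keeps scramble replicate 1, the lowest scramble library for SDC1, CD38, GPRC5D and CCR10. With both libraries numbered 1 left out, SDC1 and CD38 stayed lower (-0.046 and -0.21). SLAMF7, CCR10 and ICAM1 were then higher (0.40, 0.045 and 0.087).

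In the overexpression comparison 1 of 10 members passed, CCR10, where 0.914% of all 10279 genes did. That call rests on a listing of 0, as did 82 of the 94 calls, which had a 0 in at least 1 library. In a fit restricted to the genes with no 0, 0 of 8665 genes passed limma, with 1201 at an unadjusted p under 0.05. Groups did not overlap for 6 of 10 members, against 34.2% of all genes. SLAMF7, CD47, ICAM1 and CD33 lay above their controls, and FCRL5 and CCR10 below. The median log2 fold change over the 8 members with no 0 was 0.28, with 6 of them higher. Over all genes it was 0.087, with 59.9% higher. Listed values summed to 498485 and 502349 in overexpression libraries, against 425155 to 426112 in empty vector libraries. After quantile normalisation the median over all genes was -0.045. How far this table-wide difference makes up that of the members was not tested.

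**Figure D1:**
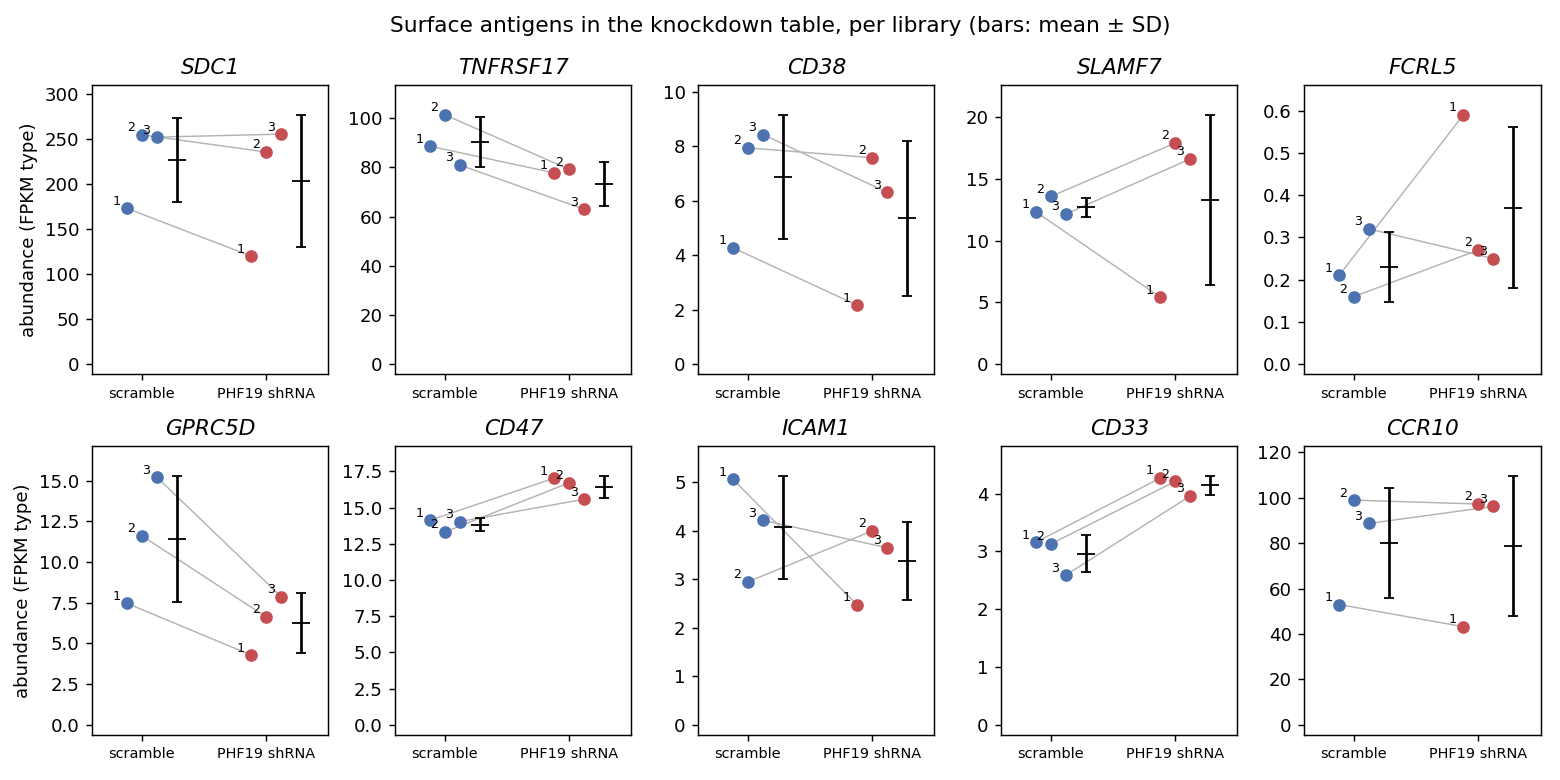
Abundance (FPKM type, vertical axes from 0) of the 10 antigens in each scramble (blue) and PHF19 shRNA (red) library of the knockdown table, with replicate numbers, grey lines joining equal numbers, and mean ± SD bars (n = 3). GPRC5D is lower at the shRNA end of all 3 lines, by a similar proportion. GPRC5D, SDC1, CD38 and CCR10 are lowest in replicate 1 of both groups.

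The order of the members by abundance per length had the same first gene in both control groups. SDC1, which encodes syndecan-1 (CD138), the heparan sulfate proteoglycan used to identify plasma cells, led with 227 ± 46.5 (SD, n = 3) in scramble and 228 ± 65.6 (n = 3) in empty vector libraries. It lay above 95.6% of listed genes in every knockdown library. TNFRSF17 (90.3 ± 10.3) and CCR10 (80.2 ± 24.1) came next in scramble libraries and their ranges overlapped. CD47 (13.8 ± 0.444), SLAMF7 (12.7 ± 0.778), GPRC5D (11.4 ± 3.88), CD38 (6.88 ± 2.27), ICAM1 (4.08 ± 1.06) and CD33 (2.96 ± 0.321) followed. Each of these overlapped the next in that order. FCRL5 was last at 0.230 ± 0.0819, with no overlap with CD33. In the empty vector libraries CCR10 came after SDC1, at 60.9 ± 15.2, and TNFRSF17 was listed at 0, 0 and 105, so its place is uncertain. FCRL5 was also last in those libraries, at 2.02 ± 1.04, there overlapping CD33 at 3.19 ± 1.15.

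GPRC5D encodes an orphan G protein-coupled receptor of class C that bispecific antibodies bind on myeloma cells, and it had the largest proportional difference among the members tested after knockdown. It was 7.46, 11.6 and 15.2 in scramble replicates 1, 2 and 3 and 4.28, 6.62 and 7.87 in shRNA replicates 1, 2 and 3. The groups overlap, because scramble replicate 1 (7.46) lies below shRNA replicate 3 (7.87). Replicate 1 is the lowest library of each group. Between equally numbered libraries the change in GPRC5D was -42.6%, -43.0% and -48.3%. On the log2 scale the difference was -0.76 (SE 0.26, 95% interval -1.34 to -0.18, limma adjusted p = 0.114). With the replicate number as a block it was called lower (SE 0.12, interval -1.04 to -0.48, adjusted p = 0.00912), as were 3.68% of all genes. It was also called when both libraries numbered 1 were left out (-0.80, adjusted p = 0.0111), an alternative chosen after seeing the data. The authors' deposited table gives p = 1.82e-14 for GPRC5D, from a test that is not stated.

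On overexpression GPRC5D was 12.001, 9.47 and 7.03 in empty vector and 10.2 and 10.4 in overexpression libraries, so both overexpression values lie inside the control range (0.13, interval -0.52 to 0.78, adjusted p = 0.866). Of its relatives, GPRC5A and GPRC5B were not high enough to be tested in the knockdown table, and GPRC5C was not matched there. GPRC5B had the higher control mean, at 1.04 ± 0.476 in scramble and 0.440 ± 0.288 in shRNA libraries.

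CD33 is a sialic acid-binding receptor of the Siglec family, best known as a myeloid antigen and the target of gemtuzumab ozogamicin. With CD47 it was 1 of 2 members whose groups did not overlap in either table. Groups were without overlap for 32% of all genes in the knockdown table and 34.2% in the overexpression table. The share of all genes without overlap in both was not computed. In the overexpression table CD33 was 2.44, 2.63 and 4.51 in empty vector and 10.5 and 15.2 in overexpression libraries. Both overexpression values are above all 3 controls, as for 23.1% of all genes. The ratio of means was 4.02, and the log2 fold change was 1.73 (SE 0.30, interval 0.92 to 2.55). It did not pass over all genes (limma adjusted p = 0.202, and 0.0526 to 0.658 over the alternatives), at an unadjusted p = 0.00358. The authors' deposited table gives p = 2.29e-09 for CD33 in this comparison.

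In the knockdown table CD33 was 3.16, 3.13 and 2.59 in scramble and 4.27, 4.21 and 3.96 in shRNA libraries. All 3 shRNA values are above all scramble values, as for 18.9% of all genes. The log2 fold change was 0.38 (SE 0.15, interval 0.05 to 0.71, adjusted p = 0.149). Within pairs CD33 was 35.1%, 34.5% and 52.9% higher in shRNA libraries. The difference thus has the same sign after knockdown and on overexpression, with neither past the threshold. Of the other Siglec genes and their ligand CD24, 3 of 13 listed were in the knockdown table and 0 were high enough to be tested. CD24 had the highest scramble mean of these, at 0.0967. No listed Siglec was matched in the overexpression table. The myeloid marker list, of which 4 of 5 genes were matched in the knockdown table and only LYZ in the overexpression table, summed to 1.51 to 2.71 in scramble and 0.870 to 1.43 in shRNA libraries, and to at most 0.0572 in empty vector against 0.396 and 6.17 in overexpression libraries. Their part in the CD33 difference was not tested.

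**Figure D2:**
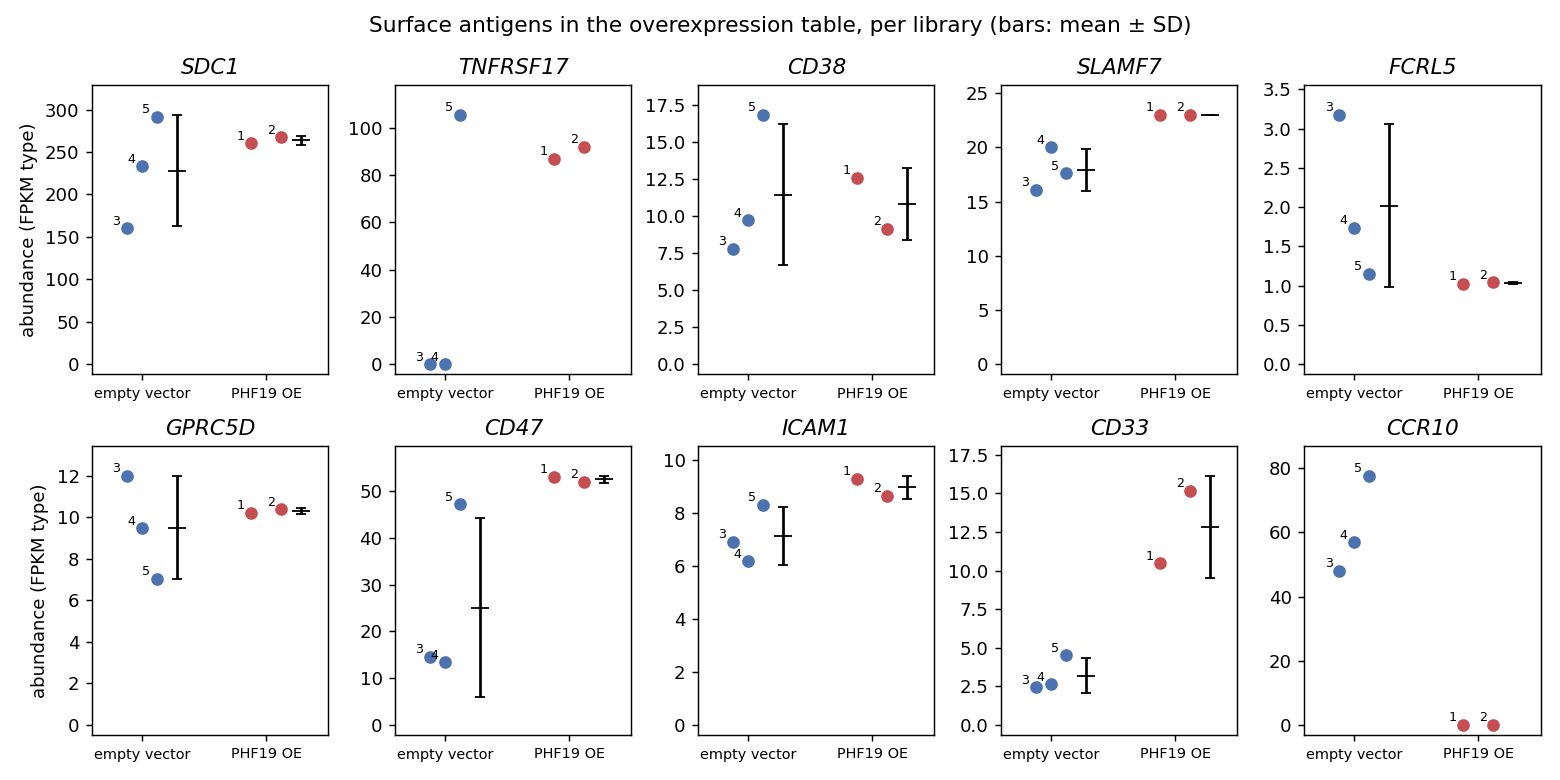
Abundance (FPKM type, vertical axes from 0) of the same antigens in each empty vector (blue) and PHF19 overexpression (red) library, with replicate numbers. Mean ± SD bars (n = 3 and n = 2) are drawn only for genes with no 0. TNFRSF17 is at 0 in empty vector replicates 3 and 4, CCR10 is at 0 in both overexpression libraries, and CD47 in empty vector replicate 5 is close to the overexpression values.

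Since relatives of PHF19 read CpG-rich DNA, the DNA just before the start of 3 members is shown: GPRC5D and CD33, the 2 members with an unadjusted p under 0.05 after knockdown, and CD47, the member with the most CpG. The sequences come from RefSeq promoters of build GRCh38.p14, a different build from the hg19 used for alignment. Of the 10 members, 7 were matched. TNFRSF17, SLAMF7 and CCR10 are named only. Each line gives the 250 bases before the start, 5′ to 3′ on the strand of the gene. Capitals mark every CG, which reads the same on both strands. The windows are chr12:12952171-12952420, minus strand, for GPRC5D, chr19:51224830-51225079, plus strand, for CD33, and chr3:108091032-108091281, minus strand, for CD47.
GPRC5D: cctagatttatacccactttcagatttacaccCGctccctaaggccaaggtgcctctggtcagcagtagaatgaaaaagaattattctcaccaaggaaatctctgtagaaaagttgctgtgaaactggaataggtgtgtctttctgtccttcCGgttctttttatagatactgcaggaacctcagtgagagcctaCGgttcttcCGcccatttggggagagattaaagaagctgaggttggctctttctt
CD33: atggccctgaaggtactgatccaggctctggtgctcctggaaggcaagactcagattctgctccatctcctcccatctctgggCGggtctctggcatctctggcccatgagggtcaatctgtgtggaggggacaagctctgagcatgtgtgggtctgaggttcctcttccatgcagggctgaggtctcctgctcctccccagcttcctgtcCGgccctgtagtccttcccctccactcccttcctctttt
CD47: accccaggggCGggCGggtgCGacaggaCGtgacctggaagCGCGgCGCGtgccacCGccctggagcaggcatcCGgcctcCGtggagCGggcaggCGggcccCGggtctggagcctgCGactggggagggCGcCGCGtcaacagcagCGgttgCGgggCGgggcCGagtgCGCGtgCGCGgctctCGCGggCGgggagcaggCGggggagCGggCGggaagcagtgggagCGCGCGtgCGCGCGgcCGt

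The windows of GPRC5D and CD33 hold 4 and 2 CG. At least that many are found in 70.7% and 85.3% of the 35116 promoters in the table, whose median is 11. The CD47 window holds 39, a number reached by 2.65% of promoters. CD38 and FCRL5 have 3 each, ICAM1 has 23, and the 2 SDC1 starts have 21 and 23. These counts describe the reference sequence, and no binding or methylation was measured in these libraries.

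TNFRSF17 encodes BCMA, the receptor for the survival factors BAFF and APRIL and the target of several CAR T cell products and bispecific antibodies. It was 88.6, 101 and 80.9 in scramble and 77.7, 79.2 and 62.9 in shRNA libraries. Every shRNA value is below every scramble value, as for 13% of all genes. Within pairs the change in TNFRSF17 was -12.2%, -21.9% and -22.2%. As a log2 fold change this was -0.30 (SE 0.14, interval -0.61 to 0.01) and did not pass (adjusted p = 0.221, with the block 0.0889). It was -0.19 without shRNA replicate 3. The authors' deposited table gives p = 7.82e-13 for TNFRSF17 here. In the overexpression table it is listed at 0, 0 and 105 in empty vector replicates 3, 4 and 5 and at 86.9 and 91.9 in overexpression libraries. The only empty vector library with a value is thus above both overexpression libraries. Without that library TNFRSF17 passed limma (adjusted p = 0.00126), a call that rests on both remaining controls being at 0.

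Of the 10 other genes of the BCMA axis, 8 were tested in each table. After knockdown 1 was higher and 1 lower, and on overexpression none passed. TNFRSF13B, which encodes TACI, the sister receptor for the same ligands, fell from 3.75 ± 0.631 (SD, n = 3) to 1.42 ± 0.833 (n = 3), which is -1.03 on the log2 scale (SE 0.26, limma adjusted p = 0.0492). NCSTN, which encodes nicastrin, a subunit of the gamma-secretase that sheds BCMA from the membrane, rose from 22.8 ± 0.772 to 33.6 ± 3.03 (0.54, SE 0.12, adjusted p = 0.0332). Both calls held without shRNA replicate 1 and were lost without any other single library, where the adjusted p reached 0.143 for TNFRSF13B and 0.134 for NCSTN. APH1A, another subunit of that enzyme and the gene of this list with the highest empty vector mean, was 129 ± 13.4 (n = 3) and 167 ± 10.1 (n = 2) on overexpression (adjusted p = 0.405).

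SDC1 was 173, 255 and 252 in scramble and 120, 236 and 256 in shRNA libraries. The groups overlap, and replicate 1 is the lowest in each. Its log2 fold change was -0.21 (interval -0.83 to 0.42, limma adjusted p = 0.688). It became 0.14 without shRNA replicate 1 and -0.046 with both libraries numbered 1 left out. The authors' deposited table gives p = 1.12e-29 for SDC1, beside a difference in means of less than the spread between scramble replicates. On overexpression SDC1 was 160, 233 and 291 against 260 and 267, inside the control range (0.25, interval -0.51 to 1.01, adjusted p = 0.759). It was 0.018 without empty vector replicate 3 and 0.45 without empty vector replicate 5. Among the other syndecans and the enzymes that build or trim the heparan sulfate chains of syndecan-1, 1 of 18 tested passed after knockdown. XYLT1, a xylosyltransferase that begins those chains, rose from 1.62 ± 0.527 (n = 3) to 5.32 ± 1.48 (n = 3), which is 1.26 on the log2 scale (SE 0.21, adjusted p = 0.0152), a call lost without scramble replicate 1 or 2 (adjusted p up to 0.0744). On overexpression 0 of 17 passed. B3GAT3, an enzyme of the linker between protein and chain, had the highest empty vector mean at 39.5 ± 3.06, against 59.2 ± 6.08 (n = 2) in overexpression libraries (adjusted p = 0.312).

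CD38, an ectoenzyme that consumes NAD and the target of daratumumab, was 4.27, 7.94 and 8.43 in scramble and 2.16, 7.58 and 6.31 in shRNA libraries. It was lower in each of the 3 pairs, with changes of -49.4%, -4.53% and -25.1%, a direction seen in all pairs for 24.2% of all genes. Across libraries its log2 fold change was -0.39 (interval -1.24 to 0.46, adjusted p = 0.566, and 0.130 with the block). It was 0.054 without shRNA replicate 1 and -0.21 with both libraries numbered 1 left out. For CD38 the authors deposited p = 3.86e-09 here, from a test that is not stated. On overexpression CD38 was 7.76, 9.71 and 16.8 against 12.5 and 9.11 (-0.020, interval -1.01 to 0.97, adjusted p = 0.987). Among ectoenzymes and partners near CD38, 2 genes were tested in each table and none passed. NT5E, which makes adenosine at the cell surface, was 3.37 ± 0.745 and 6.14 ± 2.19 after knockdown (adjusted p = 0.105) and 4.41 ± 1.30 and 5.31 ± 1.04 on overexpression (adjusted p = 0.759).

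SLAMF7, an adhesion receptor of the SLAM family and the target of elotuzumab, depended on a single library after knockdown. It was 12.3, 13.6 and 12.2 in scramble and 5.42, 17.9 and 16.6 in shRNA replicates 1, 2 and 3. One shRNA value is below all scramble values and the others are above them. Its mean log2 difference was -0.086 (interval -0.93 to 0.76, adjusted p = 0.909) and turned to 0.42 without shRNA replicate 1 (adjusted p = 0.0952). On overexpression SLAMF7 was 16.1, 20.0 and 17.6 against 23.0 and 23.0, both above all controls (0.35, interval -0.01 to 0.71, adjusted p = 0.442). Such separation upward was found for 23.1% of all genes. Of the other SLAM receptors and their adaptors 3 were tested after knockdown. LY9, a SLAM receptor, rose from 2.28 ± 0.643 to 5.16 ± 0.994 (0.92, adjusted p = 0.0297), which held without shRNA replicate 1 or 2 and was lost without any other single library (adjusted p up to 0.103). CD48, a membrane-anchored SLAM relative, and FYN, the kinase that acts with SLAM adaptors, passed with the replicate block and not without it (0.72 and 0.43, adjusted p = 0.00618 and 0.0400, against 0.0959 and 0.0713). With both libraries numbered 1 left out CD48 passed (adjusted p = 0.00295) and FYN did not (0.0913). On overexpression 0 of 3 passed, and CD48 was 77.6 ± 13.8 and 117 ± 0.274 (adjusted p = 0.372).

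FCRL5, an Fc receptor-like protein and the target of cevostamab, was at 0.210, 0.160 and 0.320 in scramble and 0.590, 0.270 and 0.250 in shRNA libraries, below the level set for a test. On overexpression it was 3.18, 1.74 and 1.15 in empty vector against 1.02 and 1.04. Both overexpression values are below all controls, as for 11.1% of all genes (-0.51, interval -1.43 to 0.40, adjusted p = 0.598, and -0.25 without empty vector replicate 3). For FCRL5 the authors deposited p = 0.0111 in this comparison, from a test that is not stated. Its family is made of related genes that can share reads, as is that of CD33, so small values are uncertain. FCRL4, a relative normally found on memory B cells, is listed at 0.0600, 0.140 and 0 in scramble and 3.08, 1.80 and 1.29 in shRNA libraries and passed as higher (adjusted p = 0.0109, lost without scramble replicate 1 or 2 at up to 0.05296). It reached the filter level of 1 only in shRNA libraries, so it was tested only through the group where it is high and had to differ. It was 1 of 2 relatives tested. On overexpression 0 of 2 passed, and FCRLB was 3.42 ± 1.72 and 3.50 ± 1.24 (adjusted p = 0.955).

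**Figure D3:**
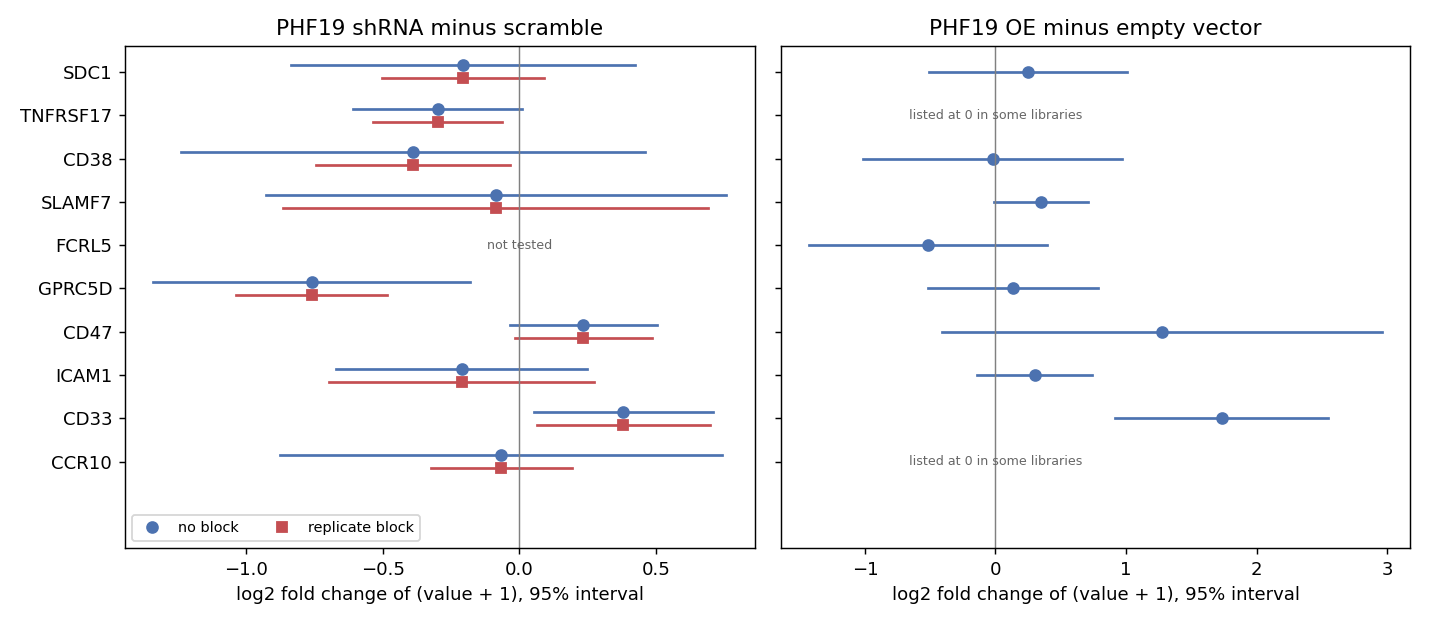
Log2 fold change of (value + 1) with its 95% interval for each member, shRNA minus scramble on the left (blue without, red with the replicate block) and overexpression minus empty vector on the right. Without the block, GPRC5D and CD33 have intervals away from 0 on the left, and with it TNFRSF17 and CD38 do too. CD33 does on the right, and genes at 0 in some libraries or not tested carry no point.

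CD47, the "don't eat me" signal that restrains macrophages through SIRPA, was 14.1, 13.3 and 14.0 in scramble and 17.0, 16.7 and 15.6 in shRNA libraries. All shRNA values are above all scramble values, as for 18.9% of all genes. This was a log2 fold change of 0.23 (SE 0.12, interval -0.03 to 0.50, adjusted p = 0.264). For CD47 the authors deposited p = 1.01e-09 here, from a test that is not stated. Their deposited p after knockdown was 0.00934 for ICAM1, 0.0172 for FCRL5, 0.0297 for CD33, 0.191 for SLAMF7 and 0.381 for CCR10. On overexpression CD47 was 14.6, 13.4 and 47.2 in empty vector replicates 3, 4 and 5 and 53.1 and 51.9 in overexpression libraries. Both overexpression values are above all controls, as for 23.1% of all genes. The controls split, with replicate 5 near the overexpression libraries. A spread of at least 3-fold within empty vector was seen for 155 of 4977 genes with no 0 and a mean of at least 10 (3.11%), and for 18 of 6188 such genes (0.291%) within scramble. For CD47 this gave 1.28 on the log2 scale (interval -0.41 to 2.96, adjusted p = 0.520), and CD47 passed only without replicate 5 (1.84, adjusted p = 0.00841). CALR, a surface signal that opposes CD47 and a chaperone of the endoplasmic reticulum, was 655 ± 69.3 and 454 ± 22.7 after knockdown (-0.52, adjusted p = 0.0513, with the block 0.0309). On overexpression it was 524 ± 151 and 587 ± 31.4 (adjusted p = 0.808).

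ICAM1, the adhesion molecule that binds the leukocyte integrin LFA-1, was 5.06, 2.95 and 4.22 in scramble and 2.47, 4 and 3.65 in shRNA libraries. The groups overlap and the pairs point both ways (-0.21, interval -0.67 to 0.25, adjusted p = 0.570). Its log2 fold change was -0.052 without shRNA replicate 1, -0.072 without scramble replicate 1, -0.38 without scramble replicate 2 and -0.32 without shRNA replicate 2. Exons of ICAM1 overlap 2 antisense genes in GENCODE 29, so its values are uncertain without known strand. On overexpression it was 6.92, 6.17 and 8.31 against 9.27 and 8.64, both above the controls (0.30, interval -0.14 to 0.74, adjusted p = 0.553). That separation upward was seen for 23.1% of all genes. Of 11 other adhesion genes tested after knockdown none passed limma, and 1 did with the replicate block, ITGAL, the alpha chain of LFA-1 (3.57 ± 1.64 and 6.56 ± 2.23, adjusted p = 0.0135, against 0.180, and 0.0173 with both libraries numbered 1 left out). ITGB7, the integrin chain abundant in this line, was 758 ± 120 and 949 ± 112 (adjusted p = 0.249). On overexpression 0 of 10 passed, with ITGB7 at 610 ± 132 and 840 ± 73.2 (adjusted p = 0.478).

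CCR10, the receptor for the mucosal and skin chemokines CCL28 and CCL27 that is typical of IgA plasma cells, was 53.0, 98.9 and 88.7 in scramble and 43.2, 97.2 and 96.1 in shRNA libraries. The groups overlap, with replicate 1 low in each (-0.066, interval -0.87 to 0.74, adjusted p = 0.928). On overexpression CCR10 is listed at 48.1, 56.9 and 77.7 in empty vector and at 0 and 0 in overexpression libraries, which passed limma (adjusted p = 0.00218). No fold is given against a listing of 0. The table holds 19 genes at 0 in both overexpression libraries with at least 10 in every empty vector library, and 35 genes the other way round. The authors' deposited table gives p = 0.497 for CCR10. Exons of CCR10 overlap those of CNTNAP1 on the opposite strand in GENCODE 29, and whether counting used strand is not stated in the labels, so CCR10 is uncertain in both tables. Of the other chemokine receptors, CCR1 was 41.7 ± 4.05 and 29.2 ± 2.48 after knockdown (-0.50, adjusted p = 0.0506, with the block 0.0341) and 47.3 ± 5.90 and 69.8 ± 0.211 on overexpression (adjusted p = 0.328). CXCR3 was 2.61 ± 1.69 and 0.820 ± 0.357 after knockdown (adjusted p = 0.179). Its call came with the block (0.0339) and with both libraries numbered 1 left out (0.00237), where CCR1 was called too (0.00448).

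**Figure D4:**
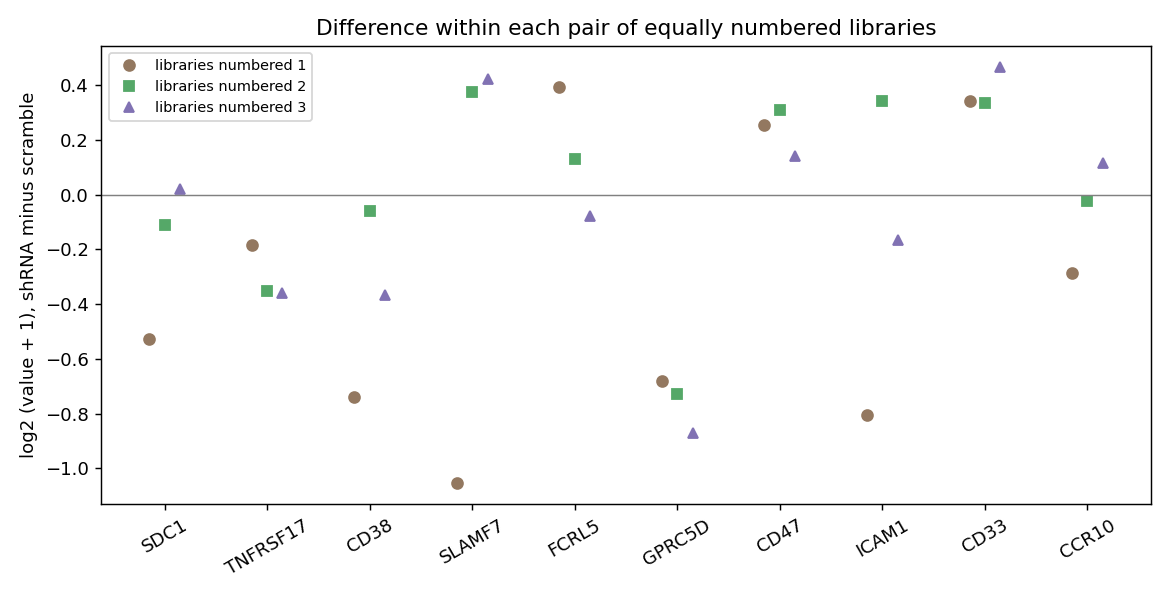
Difference in log2 (value + 1), shRNA minus scramble, within each pair of libraries with the same number (1 circle, 2 square, 3 triangle), for the 10 members. GPRC5D lies between -0.87 and -0.68 in all pairs and CD33 between 0.34 and 0.47, whereas SLAMF7 runs from -1.05 to 0.42.

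Within pairs, GPRC5D, TNFRSF17 and CD38 were lower in 3 of 3 and CD47 and CD33 higher in 3 of 3, as were 24.2% and 31.2% of all genes. SDC1, ICAM1 and CCR10 were lower in 2 of 3, and SLAMF7 and FCRL5 in 1 of 3. Replicate 1 was the lowest library of its group for 4 of 10 members in scramble and for 6 of 10 in shRNA libraries. The same held for 49.1% and 50.9% of all genes tested. SDC1, CD38, GPRC5D and CCR10 were lowest there in both groups, as were 29.6% of all genes.

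Further surface molecules were looked at through the same lists, which were chosen with earlier results of these data known. Over 14 lists with 169 genes, 90 were tested after knockdown, of which 5 were higher and 1 lower (6.67%, beside 5.51% of all genes), and 11 and 6 with the replicate block (18.9%, beside 11.9% of all genes). Their median log2 fold change was 0.10. FCRL4, which had to differ once tested, is among those counted as higher without and with the block. On overexpression 88 were tested and 0 passed limma, with 18 at an unadjusted p under 0.05 (beside 11.5% of all genes) and a median of 0.23. Among ligands of natural killer and T cell receptors, TNFRSF14, which binds the inhibitory receptor BTLA, rose from 6.62 ± 0.991 to 11.1 ± 0.594 after knockdown (0.67, adjusted p = 0.0315), as 1 of 7 tested. This call held without shRNA replicate 1 and was lost without any other single library (adjusted p up to 0.117). CD276, an immune checkpoint ligand, was 30.1 ± 1.01 and 40.3 ± 0.622 on overexpression (adjusted p = 0.316).

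None of the 3 complement regulators, which protect cells from antibody-directed lysis, passed in either table. CD59 was 32.7 ± 0.465 and 25.9 ± 1.19 after knockdown (adjusted p = 0.113). Of 15 other B cell and myeloma antigens tested in each table none passed limma. With the replicate block NCAM1 (CD56), INSR and the TRAIL receptor TNFRSF10B were higher and the TRAIL receptor TNFRSF10A lower after knockdown. NCAM1 was 6.13, 2.51 and 3.08 in scramble and 33.5, 6.58 and 7.32 in shRNA libraries, highest in replicate 1 of both groups (adjusted p = 0.234, 0.0160 with the block, and 0.00204 with both libraries numbered 1 left out). CD74, the invariant chain, was 588, 256 and 259 in scramble and 336, 388 and 405 in shRNA libraries (0.15, adjusted p = 0.795). With both libraries numbered 1 left out it passed as higher (0.62, adjusted p = 0.0103). On overexpression CD74 was 447 ± 90.8 and 481 ± 57.4 (adjusted p = 0.855). Of 16 transcription factors listed as regulators of plasma cell antigens, none passed limma in either table. MAF, a driver in part of myeloma, was 72.01 ± 6.57 and 51.8 ± 8.17 after knockdown and passed with the block (adjusted p = 0.0252, against 0.0842) and with both libraries numbered 1 left out (0.0356). XBP1, the factor of the secretory program, was 453 ± 84.6 and 359 ± 126 (adjusted p = 0.408), and 518 ± 135 and 577 ± 9.81 on overexpression (adjusted p = 0.7999).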

How the data were processed

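RNA-seq of 11 ARP1 libraries was taken from 2 tables. The values, recorded as FPKM, were deposited by the authors after normalisation for length and depth, with no unit in the headers. The submitters' processing notes name TopHat, with no version, and build hg19. How genes were quantified and filtered, and with which annotation, is not given in the sources used. Each table holds the authors' p-value for every gene, per the file headers, and the test is not stated. No counts were given, so depth and counting error are unknown.

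Values were tested as log2(value + 1) with limma-trend and robust variances (limma 3.58.1, R 4.3.3), two-sided, keeping genes that reach 1 in a number of libraries equal to the smaller group. Adjusted p-values follow Benjamini and Hochberg across the whole table, with calls at 0.05. A fold change on that scale understates low genes. Levels are means ± SD. The fit was tested on simulated data. Python 3.11.15, pandas 2.3.3, numpy 2.4.6 and matplotlib 3.10.9 made the tables and plots.

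Members and lists were chosen with earlier results of these data known. Named genes were all members, PHF19, list genes past the threshold in either arm, and, for lists with none, the gene with the highest control mean. Genes that passed with the block and not without it were added after their values were seen. So were KRT8, CD79A, FGFR3, CD44, CD33's family, FCRL4's values and ribosomal examples. No member passed the knockdown fit, so genes with a like profile were not sought.

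Deviations from group means correlated at 0.341, 0.270 and 0.273 for equally numbered scramble and shRNA libraries and at -0.277 to 0.0936 for the others, so the numbers were taken to pair the samples. This pairing is read from the data and from no label. The alternatives tried were a plain limma fit (no trend, no robust variances), quantile or median-of-ratios scaling, a low-value filter set at 5 or dropped, a pseudocount of 0.1 or 0.5, single-library omission, the block, omission of genes listed at 0 and, added after seeing the data, omission of both libraries numbered 1.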

Additional observations from a re-analysis of the deposited data

How the results depend on the processing

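Over the members tested, 122 of 133 alternative values after knockdown and 122 of 127 on overexpression kept their direction and their side of the threshold. After knockdown the log2 fold change changed sign without shRNA replicate 1 for SDC1 (0.14), CD38 (0.054), SLAMF7 (0.42) and CCR10 (0.32), without scramble replicate 2 or 3 for CCR10 (0.11 and 0.030), and with both libraries numbered 1 left out for SLAMF7 (0.40), ICAM1 (0.087) and CCR10 (0.045). Leaving out 1 library at a time gave -0.41 to 0.14 for SDC1, -0.67 to 0.054 for CD38, -0.36 to 0.42 for SLAMF7 and -0.34 to 0.32 for CCR10. On overexpression it did so for CD38 without overexpression replicate 2 (0.19) or empty vector replicate 5 (0.27) and for GPRC5D without empty vector replicate 5 (-0.047), with ranges over single omissions of -0.24 to 0.27 and -0.047 to 0.30. The cause was not tested. The number of members past the threshold after knockdown rose from 0 to 1 (GPRC5D) with the replicate block and with both libraries numbered 1 left out, and stayed at 0 to 0 over the fits that leave out 1 library. On overexpression it was 1 (CCR10), 0 without genes listed at 0, and 1 to 3 when 1 library was left out, the 3 being without empty vector replicate 5. The 601 genes past the threshold after knockdown became 269 with no filter, 1295 with the replicate block, and 54 (without scramble replicate 1) to 629 (without shRNA replicate 1) when 1 library was left out. Omitting scramble replicate 2 gave 58 and scramble replicate 3 gave 164, while omitting shRNA replicate 2 gave 285 and shRNA replicate 3 gave 180. The split of 462 higher and 139 lower became 377 and 206 after quantile normalisation. The 94 on overexpression became 36 with a filter at 5, 61 with a pseudocount of 0.1, 0 without genes listed at 0, and 107 to 350 when 1 library was left out (350 without empty vector replicate 5, 148 without overexpression replicate 1). Where 1 overexpression library was left, it was assumed to vary like the controls. Quantile normalisation moved the median of all genes on overexpression from 0.087 to -0.045, and no member changed sign with it. The replicate block changed no other call among the members. Depth is unknown, so no counting limit can be given.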
